A study of Mus musculus with 2 samples.

Results

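This section describes 8 genes that move calcium into and out of the endoplasmic reticulum (ER) of islet cells, of 31054 features listed in both libraries. They were chosen by symbol: the ER calcium pumps *Atp2a2* and *Atp2a3*, the inositol trisphosphate (IP3) receptors *Itpr1*, *Itpr2* and *Itpr3*, the ryanodine receptor *Ryr2*, the ER calcium sensor *Stim1* and the plasma membrane channel *Orai1*. The study profiled dissociated pancreatic islets by droplet single-cell RNA-seq (scRNA-seq) to ask how islet cells differ when β-cells lose their identity. The Tg7 mice overexpress miR-7a2 in β-cells and become diabetic, and the Wild-type mice were their littermates. Both groups were male, on a C57Bl6 background and 12 weeks of age, and the study's text gives the animals of this experiment a rat *Ins2*-*Cre* with a *Rosa26*-floxed-Stop-*tdTomato* reporter, carried by the controls too. The reporter labels β-cells only as far as the rat *Ins2* promoter is confined to them, and it marks a cell for good once switched on.

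There was 1 library per group, and the sources used here do not say how many mice each one came from. No difference below has a replicate check, and none was tested. The intervals are 95% exact intervals of the counts and cover counting error only, not the spread between mice.

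A cell keeps its cytosolic calcium low by pumping calcium into the ER with ATP-driven pumps of the SERCA family, which *Atp2a2* (SERCA2) and *Atp2a3* (SERCA3) encode. Calcium leaves the store through IP3 receptors, opened by IP3 made after stimulation of cell-surface receptors, and through ryanodine receptors, opened by calcium itself. When the store empties, STIM1 in the ER membrane opens ORAI1 in the plasma membrane and calcium enters the cell from outside. In β-cells these fluxes shape the calcium signals that follow glucose, and the folding enzymes that process proinsulin need the calcium in the ER.

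The microRNA raised in the Tg7 mice is given here to show which letters were sought in the 8 genes. The mature strand of miR-7a is made from the *Mir7-2* gene (GRCm38.p6 chr7:78888295-78888317, plus strand) and also from *Mir7-1* (chr13:58392841-58392863, minus strand). Its seed, bases 2 to 8, is in capitals in the RefSeq sequence.
mmu-miR-7a-5p: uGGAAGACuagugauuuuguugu

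The 7-letter match to that seed, GTCTTCC, was found in 0 of the 8 members, each read in its longest annotated 3′ UTR of 695 to 3372 bases on the sense strand. Over all 19915 genes with such a UTR 11.2% held it, and 14.5% of the 9818 genes whose UTR fell in the members' range of lengths. The 6-letter match to bases 2 to 7, TCTTCC, which is contained in the 7-letter one, was found in 4 members, against 39.9% of all genes and 53.7% of those in the length range. The 30 bases around each match follow, with the 6 letters in capitals. Both pump genes, *Itpr3* and *Ryr2* held neither. A match of letters is a description and not evidence of a site, and these windows do not cover other isoforms.
*Itpr1*, bases 881 to 910 of 1270: gtttctagatttTCTTCCtctgaaccatga
*Itpr2*, bases 1878 to 1907 of 3372: agctgcacttttTCTTCCcctgcacaagat
*Stim1*, bases 258 to 287 of 948: tgtcttagttgcTCTTCCctcagttcccac
*Orai1*, bases 183 to 212 of 770: agctttccctgtTCTTCCagctgtctgtcc
*Orai1*, bases 477 to 506 of 770: acaagggacaccTCTTCCtcatgtctgtgt

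Reads had been collapsed to unique molecular identifiers (UMIs), so that a UMI stands for 1 captured transcript. The Tg7 matrix held 1123 barcodes and 29931777 UMIs, and the Wild-type matrix 855 barcodes and 30829078 UMIs, with 0 barcodes in common. The 1006 and 755 barcodes that passed the filter (1000 UMIs or more, of which mitochondrial genes gave 20% or less) were put in the class of the hormone with the largest share of their UMIs. This gave 727 Tg7 and 550 Wild-type insulin cells, 215 and 159 Gcg cells, 21 and 30 Sst cells, and 43 and 16 Ppy cells. Class names say only which hormone was highest. All 9 insulin-cell markers had UMIs in the insulin cells of both libraries and all 8 Gcg-cell markers in the Gcg cells, while *Lepr* of the 6 Sst-cell markers was at 0 in the Sst cells of both. The 6 Ppy-cell markers all had UMIs in the Ppy cells. Such detection does not tell the classes apart. All 9 insulin-cell markers also had UMIs in the Gcg cells of both libraries. All 8 Gcg-cell, 6 Sst-cell and 6 Ppy-cell markers had UMIs in the insulin cells of both. Each list also holds the hormone that defined its class. The insulin class also took in 30 Tg7 and 40 Wild-type barcodes with at least 3 endothelial, macrophage or mesenchymal markers.

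The 2 libraries differed in the share of their UMIs that came from hormone genes. *Ins1* and *Ins2* gave 27.6% of the UMIs of Tg7 insulin cells and 61.0% of those of Wild-type insulin cells, and *Ins1* alone 1.82% and 18.4%. The hormone genes *Ins1*, *Ins2*, *Iapp*, *Gcg*, *Sst*, *Ppy* and *Pyy* together made up 42.8% and 66.1%. Levels are therefore given as UMI counts per 1000000 UMIs of all other genes (CPM), summed over the cells of a class. A level on all UMIs would raise every Tg7 over Wild-type ratio in insulin cells by a factor of 1.69. The libraries could hold different amounts of RNA per cell, which these levels do not show. On this scale the insulin cells of Tg7 and Wild-type had 102.8 and 496.6 CPM over the 7 endothelial markers, 266.6 and 239.6 over the 7 macrophage markers and 33.5 and 78.4 over the 6 mesenchymal markers, all detected. The 7 acinar markers summed to 5.81 and 2.27 CPM with *Amy2a5* at 0 in both, and the 5 ductal markers to 421.0 and 196.7 with *Cftr* at 0 in Tg7.

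In insulin cells both pump genes were lower in Tg7 than in Wild-type, and *Itpr1*, *Ryr2* and *Stim1* were higher. Of the 8 members, 3 were higher and 2 lower by 1.5-fold or more. Among the 13583 genes with at least 20 UMIs over both libraries, 31.7% were past 1.5-fold in either direction (15.9% higher, 15.8% lower). The median log2 ratio of the members, with *Ryr2* at its bound, was 0.33, against -0.04 for all these genes. A count of 5 of 8 genes, chosen with earlier results known, is a description of them only. The plot of levels by class and library shows each gene in all 8 class-by-library sums.

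**Figure D1:**
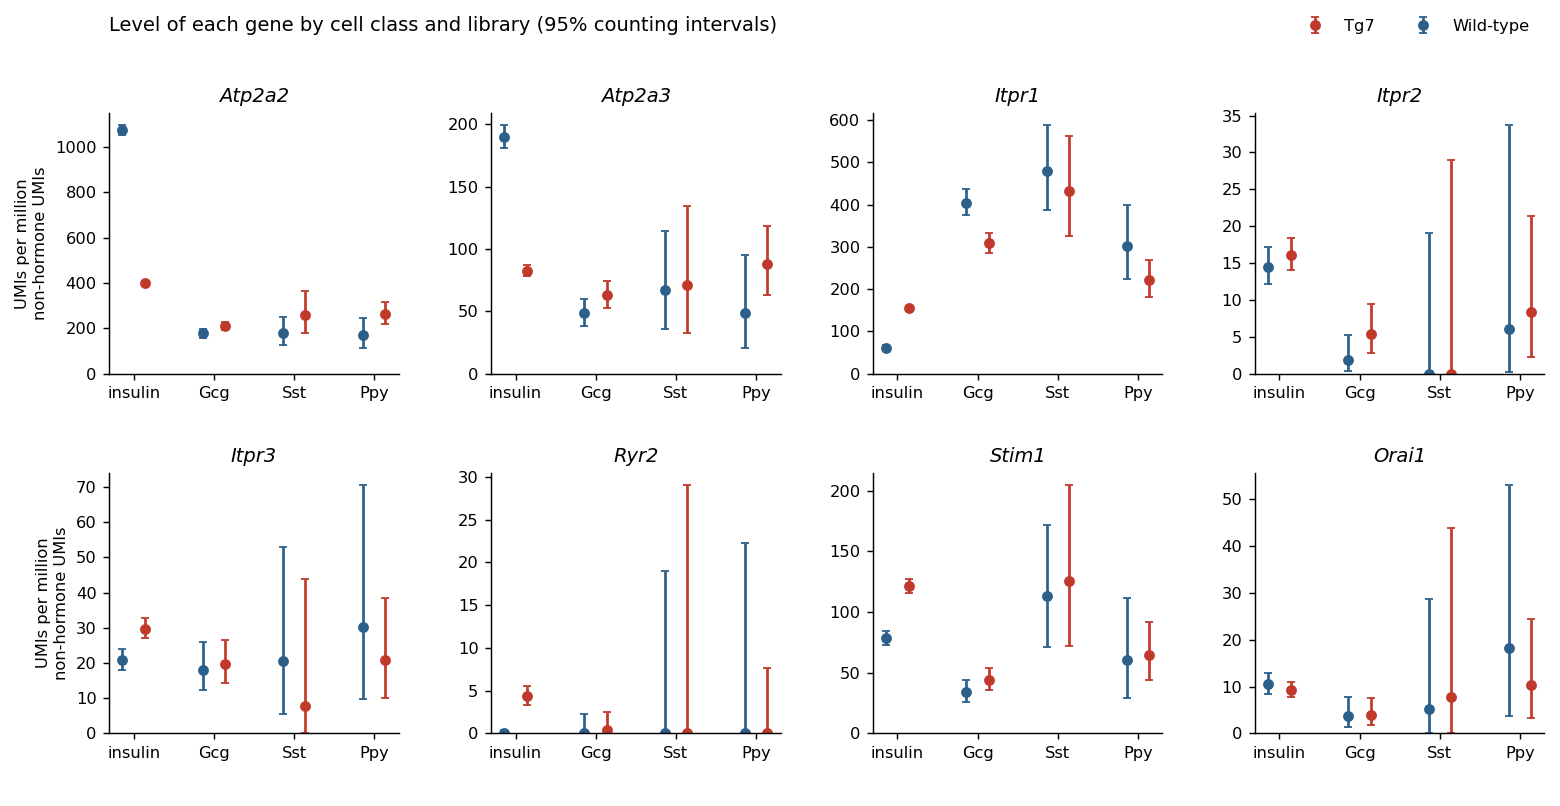
Level of each of the 8 genes, in CPM of non-hormone UMIs (vertical axis, own scale per panel), in insulin, Gcg, Sst and Ppy cells of the Wild-type (blue) and Tg7 (red) libraries. Points are summed counts of 1 library and bars are 95% exact counting intervals; *Atp2a2* and *Atp2a3* stand highest in Wild-type insulin cells, and *Itpr1* stands lowest there.

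*Atp2a2* encodes the SERCA pump found in nearly every cell type (GRCm38.p6 chr5:122453513-122502225). It had 5636 UMIs in Tg7 insulin cells and 9936 in Wild-type insulin cells, a level of 399.6 CPM (389.3 to 410.2) and 1076 CPM (1055 to 1097). The ratio of Tg7 to Wild-type was 0.371 (0.360 to 0.384), or 2.69-fold lower. The intervals of the 2 levels are far apart, and 4.56% of all genes compared had a lower ratio. On all UMIs the ratio was 0.627, which is still lower in Tg7. Per cell there were 7.75 UMIs in Tg7 and 18.1 in Wild-type, and the richest cell of either library held 34 and 69.

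*Atp2a3* encodes the lower-affinity SERCA pump (chr11:72961169-72993043), which is found in fewer cell types, β-cells among them. Its 1165 Tg7 and 1757 Wild-type UMIs in insulin cells gave levels of 82.6 CPM (77.9 to 87.5) and 190.2 CPM (181.4 to 199.3). The ratio was 0.434 (0.403 to 0.468), or 2.30-fold lower, again with intervals that do not meet. On all UMIs it was 0.732, which no longer passes 1.5-fold. *Atp2a3* made up 17.1% (16.2 to 18.1) of the UMIs of both pump genes in Tg7 insulin cells and 15.0% (14.4 to 15.7) in Wild-type, so the make-up of the pump transcripts differed little while their level differed by over 2-fold.

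Thinning every cell to 2000 non-hormone UMIs removes the difference in depth. The median insulin cell had 16390 non-hormone UMIs in Tg7 and 14423 in Wild-type. With hormone genes included the order was the other way, at 29664 and 47806 UMIs. The thinning left out 20 Tg7 and 6 Wild-type cells. *Atp2a2* was then found in 53.0% of the 707 Tg7 cells left (49.3 to 56.8) and in 77.2% of the 544 in Wild-type (73.5 to 80.7), against 91.2% and 96.7% before thinning. *Atp2a3* was found in 14.4% (11.9 to 17.2) and 29.8% (25.96 to 33.8), against 64.1% and 81.3%. For comparison, in the barcodes with markers of other cell types, whose medians were 4666 and 6757 UMIs, *Atp2a3* was found after thinning in 1 of 36 Tg7 barcodes and 0 of 38 Wild-type barcodes (up to 7.89% with a UMI).

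*Itpr1* encodes IP3 receptor type 1 (chr6:108213083-108551116), a large channel in the ER membrane. It had 2175 UMIs in Tg7 insulin cells and 568 in Wild-type, at 154.2 CPM (147.8 to 160.8) and 61.5 CPM (56.5 to 66.8). The ratio was 2.51 (2.29 to 2.76), and 93.6% of all genes compared had a lower one. Leaving out cells with several hormones mattered little: among cells whose highest hormone gave at least 90% of their insulin, *Gcg*, *Sst* and *Ppy* UMIs (552 Tg7, 524 Wild-type) the ratio was 2.57. After thinning, the share of insulin cells with an *Itpr1* UMI was 20.1% in Tg7 (17.2 to 23.2) and 10.5% in Wild-type (8.03 to 13.4), against 69.7% and 41.6% before. In barcodes with markers of other cell types the thinned shares were 2 of 36 and 5 of 38. The Wild-type value of 13.2% (4.41 to 28.1) has an interval that holds the insulin-cell share. The Wild-type insulin cells were therefore not shown to be above the other cells. All 40 of these Wild-type barcodes are also in the insulin class.

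*Itpr2* and *Itpr3* encode the type 2 and type 3 receptors and had fewer UMIs than *Itpr1* in both libraries. *Itpr2* (chr6:146108299-146502258) stood at 16.1 CPM (14.1 to 18.3) in Tg7 and 14.5 CPM (12.2 to 17.2) in Wild-type insulin cells. Its ratio of 1.11 (0.892 to 1.38) spans 1, so no difference was detectable at this depth. *Itpr3* (chr17:27057002-27122223) stood at 29.8 CPM (27.0 to 32.8) and 20.9 CPM (18.1 to 24.1), a ratio of 1.43 (1.20 to 1.70) that is under 1.5-fold but above 1 over its whole interval. On all UMIs the ratios were 1.87 for *Itpr2* and 2.40 for *Itpr3*. After thinning, an *Itpr3* UMI was found in 6.51% (4.80 to 8.58) of the Tg7 insulin cells and 1.84% (0.885 to 3.36) of the Wild-type ones, where the unthinned shares had been 38.2% and 26.9%. The thinned shares lie further apart than the levels, whose ratio was 1.43. They come from 1 random draw that was not repeated, so the size of this gap should not be relied on. In barcodes with markers of other cell types *Itpr3* was found in 1 of 36 and 2 of 38. The Wild-type value of 5.26% (0.644 to 17.75) again has an interval that holds the insulin-cell share. The Wild-type insulin cells were therefore not shown to be above the other cells.

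The receptor genes were mixed differently in the 2 libraries. *Itpr1* gave 77.1% (75.5 to 78.6) of the 2822 *Itpr* UMIs of Tg7 insulin cells and 63.5% (60.2 to 66.6) of the 895 in Wild-type. *Itpr2* gave 8.04% and 15.0%, and *Itpr3* gave 14.9% and 21.6%. These shares do not depend on how levels are scaled. They compare the same genes across libraries and do not give the proportions of the proteins, since 3′ counting captures each gene with its own efficiency.

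*Ryr2* encodes ryanodine receptor type 2 (chr13:11553099-12106945), known best as the release channel of heart muscle. It had 61 UMIs in Tg7 insulin cells, spread over 49 of 727 cells with at most 3 in any cell, at 4.33 CPM (3.31 to 5.56). In Wild-type insulin cells it had 0 UMIs in 550 cells, which allows up to 0.325 CPM. With 3 UMIs over the Wild-type class as the limit, *Ryr2* was at least 13.3-fold higher in Tg7, a bound that leaves out the counting error of the 61 Tg7 UMIs. Thinned to equal depth it was found in 5 of 707 Tg7 cells (0.707%) and 0 of 544 Wild-type cells (up to 0.551%), a level near a single UMI from which no difference can be read. The other classes held 1 *Ryr2* UMI in all, in a Tg7 Gcg cell, and the barcodes with markers of other cell types held 0.

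**Figure D2:**
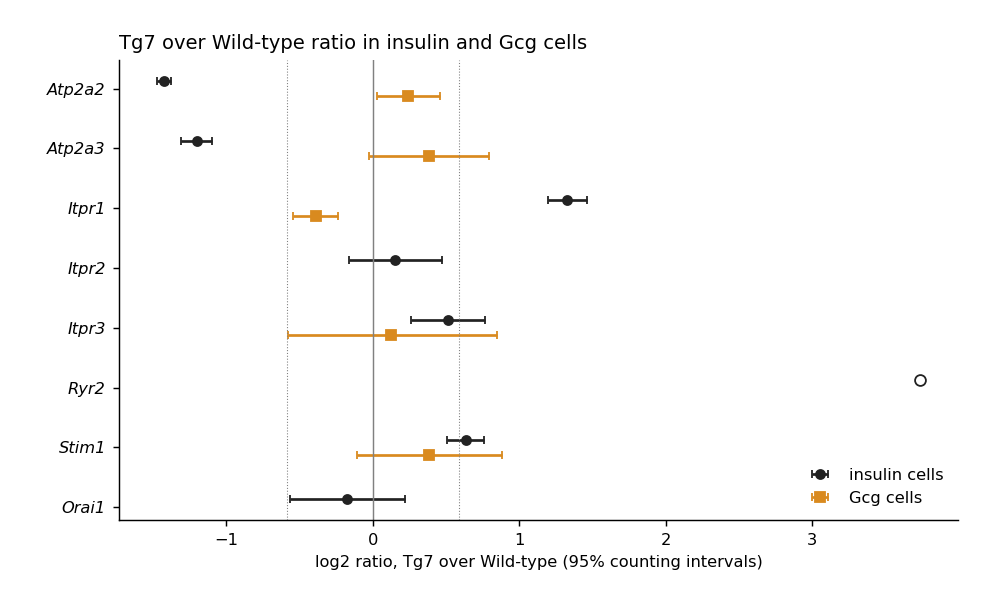
Log2 ratio of Tg7 to Wild-type for each gene in insulin cells (black circles) and Gcg cells (orange squares), with 95% exact counting intervals; dotted lines mark 1.5-fold. The open circle for *Ryr2* is a lower bound, and genes with fewer than 20 UMIs over both libraries in Gcg cells are left out; the pump genes lie left of 0 in insulin cells and right of it in Gcg cells, and *Itpr1* the other way round.

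*Stim1* encodes the sensor that detects an emptied ER store (chr7:102261514-102437319). Its 1713 Tg7 and 724 Wild-type UMIs in insulin cells gave 121.5 CPM (115.8 to 127.4) and 78.4 CPM (72.8 to 84.3), a ratio of 1.55 (1.42 to 1.69). That is near the 1.5-fold mark, and with each cell weighted equally it was 1.48. After thinning it was found in 20.8% (17.9 to 24.0) and 13.97% (11.2 to 17.2) of cells, against 74.8% and 64.7% before. In the barcodes with markers of other cell types it was found in 2 of 36 and 3 of 38.

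*Orai1* encodes the pore that STIM1 opens (chr5:123015074-123030452) and was scarce, with 131 Tg7 and 97 Wild-type UMIs in insulin cells. Its levels were 9.29 CPM (7.77 to 11.02) and 10.5 CPM (8.52 to 12.8), and the ratio of 0.885 (0.675 to 1.16) spans 1. *Orai1* was much higher in the barcodes with markers of endothelial, macrophage or mesenchymal cells, at 86.8 CPM in Tg7 and 80.8 CPM in Wild-type. Without those barcodes the ratio in insulin cells was 1.03. On all UMIs it was 1.49.

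Transcripts of release channels were thus more numerous per pump transcript in Tg7 insulin cells. The 4 channel genes gave 2883 UMIs and the 2 pump genes 6801 in Tg7, or 0.424 channel UMIs per pump UMI (0.406 to 0.443). In Wild-type they gave 895 and 11693, or 0.0765 (0.0714 to 0.0819). In Gcg cells the order of the libraries was the other way: Tg7 had 1.22 (1.10 to 1.36), below the 1.88 (1.66 to 2.14) of Wild-type. In Sst cells the values were 1.33 (0.878 to 2.04) and 2.02 (1.42 to 2.92), with intervals that overlap, and in Ppy cells 0.710 (0.557 to 0.903) and 1.56 (1.005 to 2.43). Wild-type insulin cells had the lowest value of the 8 sums, and Tg7 insulin cells lay between them and the other classes. This ratio is formed within a library and does not depend on scaling. The order in Gcg cells was read with barcodes of several hormones included. In single-hormone Gcg cells the ratio of Tg7 to Wild-type was 0.936 for *Atp2a2* and 0.873 for *Itpr1*, against 1.18 and 0.762 in all Gcg cells. There *Atp2a2* was no longer higher in Tg7, and both genes differed less between the libraries. Channel UMIs per pump UMI are not given for single-hormone cells, so the order of the libraries in Gcg cells holds only with all barcodes included.

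**Figure D3:**
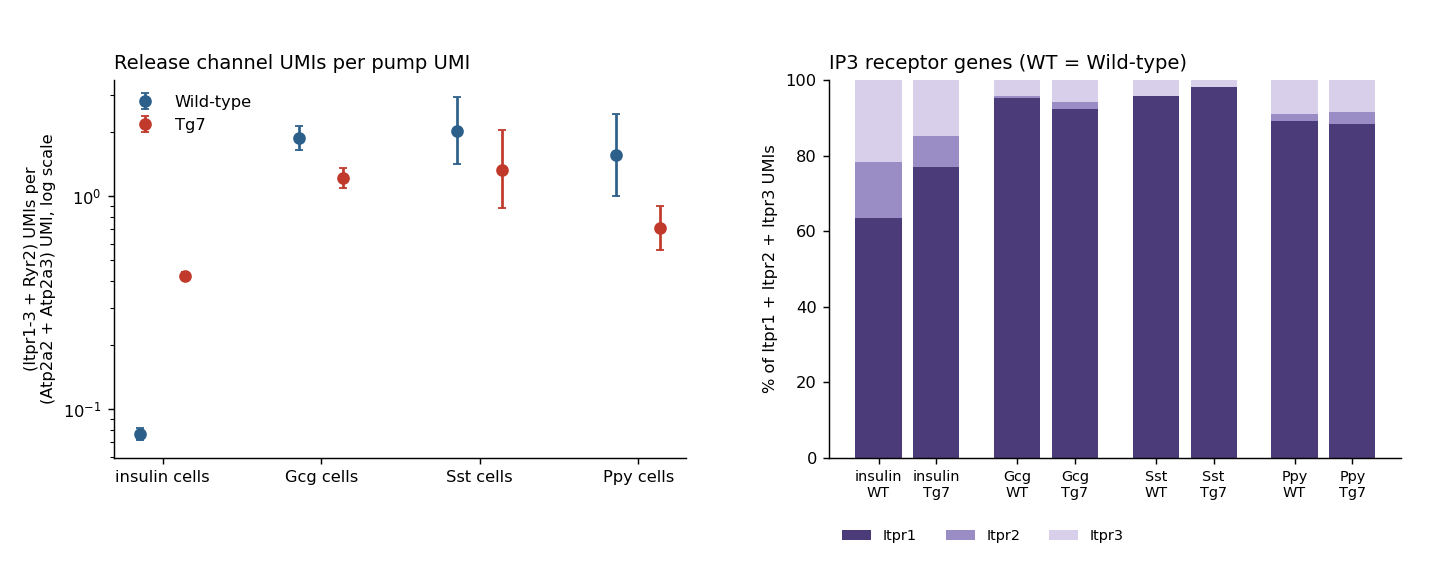
Left, UMIs of the release channels (*Itpr1*, *Itpr2*, *Itpr3* and *Ryr2*) per UMI of the pumps (*Atp2a2* and *Atp2a3*) on a log axis, by class and library, with 95% exact counting intervals: 0.0765 in Wild-type and 0.424 in Tg7 insulin cells. Right, percent of *Itpr1*, *Itpr2* and *Itpr3* UMIs from each gene, with *Itpr1* at 63.5% in Wild-type and 77.1% in Tg7 insulin cells.

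Between the classes of the Wild-type library, insulin cells stood apart for pumps and for *Itpr1*. *Atp2a2* was at 1076 CPM in insulin cells, then 180.6 in Sst, 177.6 in Gcg and 169.3 in Ppy cells, the last 3 with overlapping intervals. *Atp2a3* was at 190.2 CPM in insulin cells, then 67.1, 48.4 and 48.3 in Sst, Ppy and Gcg cells, which also overlap. The order was turned for *Itpr1*, with 479.9 CPM (387.3 to 587.9) in Sst cells, 404.7 (374.6 to 436.5) in Gcg cells, 302.3 (224.4 to 398.6) in Ppy cells and 61.5 in insulin cells, where neighbours overlap except Ppy and insulin cells. Gcg cells had 0.165 (0.147 to 0.185) of the *Atp2a2* level of insulin cells and 6.58 times (5.88 to 7.37) their *Itpr1* level. On all UMIs these were 0.285 and 11.4. The distance of the Sst cells also rests on the scaling: their *Atp2a3* level was 0.353 of that of insulin cells on non-hormone UMIs and 0.812 on all UMIs, and their *Atp2a2* level 0.387 on all UMIs.

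In the Tg7 library the classes lay closer together. *Atp2a2* was at 399.6 CPM in insulin cells, 265.3 (221.2 to 315.7) in Ppy, 259.7 (178.8 to 364.7) in Sst and 210.1 (191.5 to 230.0) in Gcg cells, the last 3 again overlapping. *Atp2a3* was at 87.8 CPM (63.2 to 118.6) in Ppy cells, 82.6 in insulin cells, 70.8 (32.4 to 134.5) in Sst cells and 62.8 (52.9 to 74.2) in Gcg cells, and only the insulin and Gcg intervals were apart. *Itpr1* was at 432.9 CPM (326.1 to 563.4) in Sst cells, 308.4 (285.7 to 332.3) in Gcg cells, 221.5 (181.3 to 267.9) in Ppy cells and 154.2 in insulin cells, and only the Sst and Gcg intervals of this order meet. Gcg cells had 0.526 (0.477 to 0.578) of the *Atp2a2* level of insulin cells and 2 times (1.83 to 2.18) their *Itpr1* level. These Tg7 distances were wider in single-hormone cells, at 0.361 and 2.66. Sst cells there had 0.416 of the *Atp2a2* level of insulin cells, against 0.650 with all cells. The Wild-type values in single-hormone cells were 0.143 and 7.81 for Gcg cells and 0.182 for Sst cells.

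*Stim1* followed another order. In Wild-type it was highest in Sst cells, at 113.5 CPM (71.1 to 171.9), followed by insulin cells at 78.4, Ppy cells at 60.5 (29.0 to 111.2) and Gcg cells at 33.8 (25.6 to 43.9). In Tg7 it was at 125.9 (72.0 to 204.5) in Sst, 121.5 in insulin, 64.8 (44.0 to 91.9) in Ppy and 44.0 (35.7 to 53.6) in Gcg cells. On this scale the Sst and insulin intervals overlap in both libraries, as do those of Ppy and Gcg cells. On all UMIs the *Stim1* level of Wild-type Sst cells was 3.34 times that of insulin cells, against 1.45 times on non-hormone UMIs. Insulin cells were above Gcg cells in both libraries, Gcg cells having 0.432 (0.323 to 0.567) of their level in Wild-type and 0.362 (0.292 to 0.444) in Tg7. On all UMIs these were 0.746 and 0.343. *Itpr2* had few UMIs outside insulin cells, with 3 in Wild-type and 12 in Tg7 Gcg cells and 0 in Sst cells of both libraries. For *Itpr3* the Wild-type levels of the 4 classes, from 18.1 CPM in Gcg to 30.2 in Ppy cells, did not differ beyond counting error on non-hormone UMIs. That too rests on the scaling. The *Itpr3* level of Wild-type Gcg cells was 0.867 of that of insulin cells on non-hormone UMIs and 1.499 times it on all UMIs. For Wild-type Sst cells the values were 0.988 and 2.275. *Orai1* had from 1 to 9 UMIs in each sum outside the insulin cells, too few to order the classes.

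The transgene is designed for β-cells, and Gcg cells were compared for that reason. There 0 of the 5 members with at least 20 UMIs were past 1.5-fold, against 19.9% of 9981 genes (9.28% higher, 10.6% lower). *Atp2a2* stood at 210.1 CPM in Tg7 and 177.6 (157.9 to 199.1) in Wild-type, a ratio of 1.18 (1.02 to 1.37), opposite in direction to insulin cells. *Itpr1* stood at 308.4 and 404.7 CPM, a ratio of 0.762 (0.684 to 0.849), also opposite. The ratio of *Atp2a3* was 1.30 (0.981 to 1.73), of *Stim1* 1.30 (0.927 to 1.84) and of *Itpr3* 1.09 (0.670 to 1.80), each spanning 1. Insulin transcripts made up 2.01% of the UMIs of Tg7 Gcg cells and 0.346% of those of Wild-type Gcg cells. In single-hormone Gcg cells (168 and 136) the *Atp2a2* ratio was 0.936 and the *Itpr1* ratio 0.873, so the direction for *Atp2a2* did not hold there. The part of insulin transcripts in the Gcg-cell ratios was not tested beyond that.

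Sst and Ppy cells were few. In Sst cells 0 of 4 members were past 1.5-fold (29.9% of 3059 genes, 13.8% higher and 16.1% lower), with ratios of 1.44 (0.866 to 2.38) for *Atp2a2* and 0.902 (0.634 to 1.27) for *Itpr1*. In single-hormone Sst cells (10 and 10) the *Atp2a2* ratio turned to 0.846. In Ppy cells 2 of 4 were higher in Tg7 (30.7% of 5006 genes past 1.5-fold, 17.9% higher and 12.8% lower), *Atp2a2* at 1.57 (1.03 to 2.45) and *Atp2a3* at 1.81 (0.841 to 4.47). In single-hormone Ppy cells (23 and 10) only *Atp2a2*, at 1.22, and *Itpr1*, at 0.678, had enough UMIs to be compared, and 0 of these 2 were past 1.5-fold, against 26.9% of 2600 genes. Insulin transcripts were at 2.31% of the UMIs of Tg7 Ppy cells and 0.332% of those of Wild-type Ppy cells, and their part was not tested beyond that.

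Insulin cells within a library also differ in how much *Ins1* they hold, and *Ins1* was not used to choose the genes. The cells of each library were ranked by the share of *Ins1* in their UMIs and cut into tertiles, 0 to 0.728%, 0.729 to 1.83% and 1.84 to 18.5% in Tg7, and 0 to 16.1%, 16.1 to 20.3% and 20.3 to 29.7% in Wild-type. The Tg7 and Wild-type tertiles therefore cover different ranges. *Atp2a2* was nearly level over the Tg7 tertiles, at 386.2, 403.4 and 405.5 CPM from the lowest to the highest. In Wild-type it was at 1001, 1210 and 1000 CPM, every tertile above every Tg7 one. *Atp2a3* showed the same separation, with 74.6, 88.3 and 81.9 CPM in Tg7 and 175.6, 184.9 and 212.0 in Wild-type.

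*Itpr1* differed among the Wild-type tertiles. It stood at 113.3 CPM (101.7 to 125.8) in the lowest, 40.8 (34.2 to 48.3) in the middle and 30.03 (24.0 to 37.1) in the highest, a ratio of lowest to highest of 3.77 (2.97 to 4.83). In Tg7 it ran the other way and over a narrower range, at 132.7, 164.0 and 159.0 CPM, with a ratio of 0.834 (0.743 to 0.937). The lowest Wild-type tertile held 39 of the 40 barcodes with markers of other cell types, and its *Gcg* share of UMIs was 0.618%, against 0.00462% in the highest. Without the barcodes of other cell types the Wild-type ratio was 3.66 (2.86 to 4.73), and in single-hormone cells, where *Gcg* was at 0.0418% of the UMIs of the lowest tertile, it was 2.57 (1.99 to 3.35). The lowest Wild-type tertile of single-hormone cells stood at 77.7 CPM (68.0 to 88.5). The Tg7 tertiles of such cells stood at 101.4 (89.8 to 114), 141.6 and 132.9 CPM, with a ratio of 0.763 (0.654 to 0.8895).

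Smaller differences among the Wild-type tertiles were seen for *Itpr2* (20.9, 12.4 and 10.1 CPM), *Itpr3* (27.4, 18.4 and 16.8) and *Stim1* (84.2, 83.7 and 66.0). The ratios of lowest to highest were 2.06 (1.31 to 3.32), 1.64 (1.13 to 2.38) and 1.28 (1.054 to 1.55). In Tg7 the corresponding ratios of 1.19, 0.783 and 0.921 had intervals that span 1. *Ryr2* had 22, 21 and 18 UMIs in the Tg7 tertiles and 0 in each Wild-type tertile. *Orai1* was at 15.1 CPM in the lowest Tg7 tertile and 7.24 in the highest, a ratio of 2.08 (1.33 to 3.30). The lowest tertile held 29 of the 30 barcodes of other cell types, and without those the ratio was 1.39 (0.839 to 2.30).

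**Figure D4:**
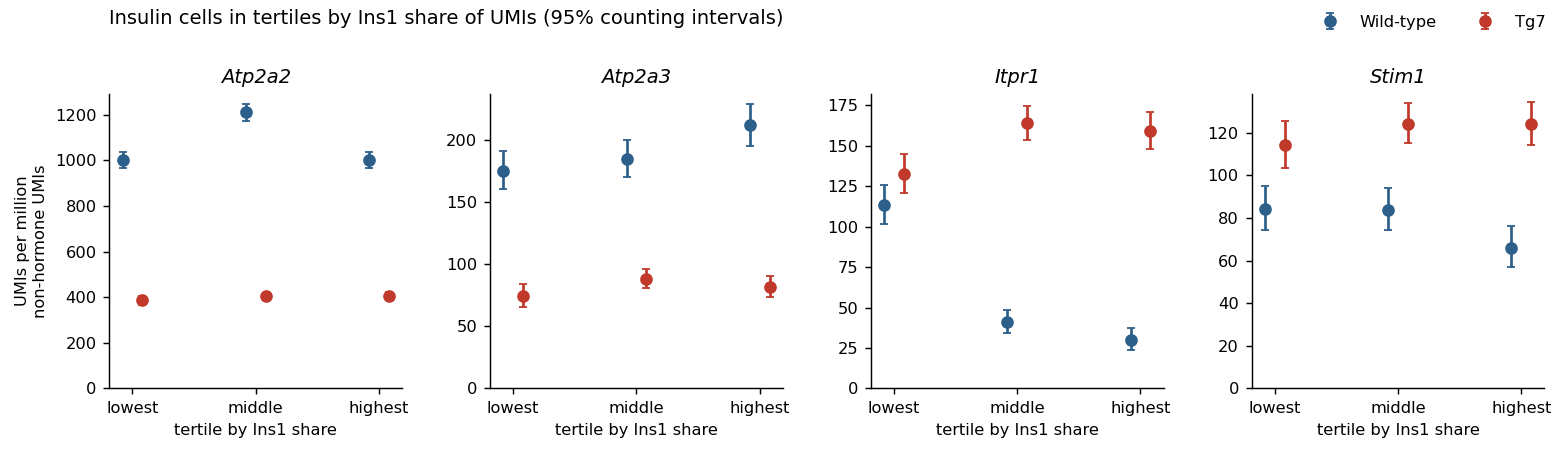
Levels of *Atp2a2*, *Atp2a3*, *Itpr1* and *Stim1* in CPM of non-hormone UMIs in insulin cells cut into tertiles by *Ins1* share within each library (Wild-type blue, Tg7 red), with 95% exact counting intervals. Both pump genes are higher in every Wild-type tertile than in any Tg7 tertile, while *Itpr1* in the lowest Wild-type tertile (113.3 CPM) comes near the Tg7 values (132.7 to 164.0). In single-hormone cells, not drawn, that tertile was at 77.7 CPM and the Tg7 values ran from 101.4 to 141.6.

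Other genes of ER and cellular calcium handling were read from 9 lists of 149 genes in all, of which 122 had at least 20 UMIs in insulin cells. Among them 60 were higher and 62 lower in Tg7, with a median log2 ratio of -0.02 beside -0.04 for all genes. By 1.5-fold or more 26 were higher and 19 lower, to be read against the 15.9% and 15.8% of all genes. The direction of the lists rests on the scaling: on all UMIs 110 were higher and 12 lower, with a median of 0.73 beside 0.71 for all genes. The counts within each list that follow are on non-hormone UMIs and move with the scaling in the same way. The plot of calcium-handling genes by list shows how wide most lists were.

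**Figure D5:**
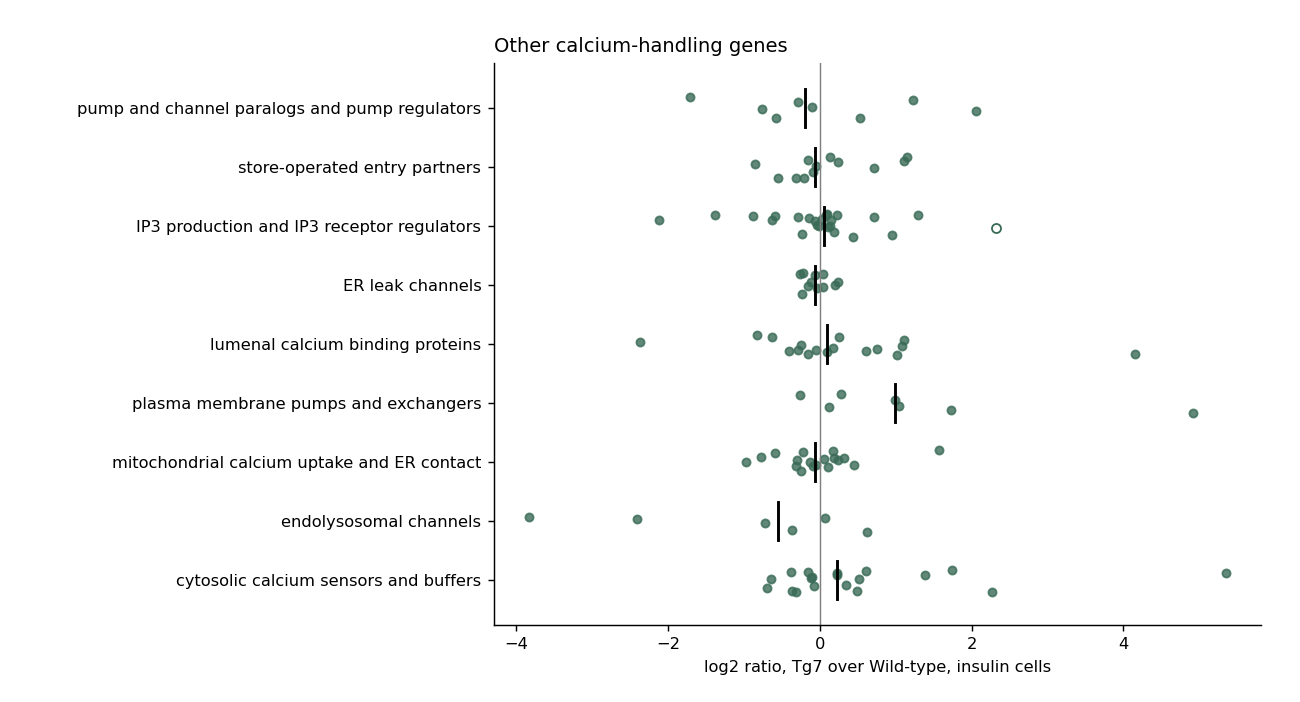
Log2 ratio of Tg7 to Wild-type in insulin cells for each measured gene of the 9 calcium-handling lists; each point is a gene, the open point is a lower bound, and the vertical bar is the list's median. ER leak channels lie closest to 0 and plasma membrane pumps and exchangers have the highest median, at 0.996. That median is the value of *Slc8a2*, a gene with 67 Tg7 and 22 Wild-type UMIs.

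Among paralogs of the members and regulators of the pumps and channels, 3 of 8 measured genes were higher and 5 lower. *Fkbp1b*, whose protein steadies ryanodine receptors in the closed state, was 3.26-fold lower (871 and 1859 UMIs, ratio 0.307, 0.283 to 0.333). *Asph*, whose junctate and junctin products sit beside ER calcium channels, was higher at a ratio of 2.34 (2.12 to 2.60). *Jph4*, a junctophilin that ties the ER to the plasma membrane, had 236 Tg7 and 37 Wild-type UMIs and a ratio of 4.18 (2.95 to 6.08).

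Partners of store-operated entry were split, 5 of 12 higher and 7 lower. *Orai2*, a paralog of *Orai1*, was at a ratio of 2.23 (1.74 to 2.89), and *Trpc4*, a cation channel of the plasma membrane, at 2.16 (1.65 to 2.86). *Esyt1*, a tether between ER and plasma membrane, was 1.80-fold lower (0.556, 0.488 to 0.633), but at 0.937 on all UMIs. *Stim2* was at 0.894 (0.789 to 1.01) and *Orai3* at 0.941 (0.824 to 1.08), which became 1.51 and 1.59 on all UMIs. The 2 paralogs were named after their values were seen.

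Genes that make, remove or respond to IP3 were 13 higher and 11 lower of 24. *Itpkb* and *Itpkc* encode kinases that phosphorylate IP3. *Itpkb* was 4.36-fold lower (478 and 1364 UMIs, ratio 0.230, 0.206 to 0.255) and *Itpkc* 1.84-fold lower (0.544, 0.442 to 0.670), the latter at 0.918 on all UMIs. *Bcl2*, an anti-apoptotic protein that also binds IP3 receptors, was at 2.46 (1.84 to 3.35).

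ER leak channels formed the list with the narrowest spread, with 0 of 11 genes past 1.5-fold. *Psen2*, a presenilin, was at 0.835 (0.729 to 0.957) and *Sec61a1*, the pore subunit of the translocon, at 0.850 (0.811 to 0.891), both above 1 on all UMIs (1.41 and 1.43), and *Tmem38a*, a potassium channel that balances charge during calcium release, at 1.18 (1.06 to 1.30). Calcium-binding proteins of the ER lumen and secretory pathway were 9 higher and 8 lower of 17. The reticulocalbins *Rcn3* (596 and 22 UMIs, ratio 17.7, 11.6 to 28.5) and *Rcn1* (2.11, 1.78 to 2.52) were higher, as was *Nucb2*, the precursor of nesfatin, at 2.167 (2.08 to 2.26). *Rcn3* had 274 Tg7 and 171 Wild-type UMIs in Gcg cells, a ratio of 1.19. By 1.5-fold or more 6 genes of this list were higher in insulin cells and 3 lower. Among the lower ones were *Hspa5* (31662 and 36872 UMIs, ratio 0.562) and *Calr* (12660 and 12790 UMIs, ratio 0.648), both far more abundant than *Rcn3* and *Rcn1*. On all UMIs they were at 0.949 and 1.09. *Hspa5* and *Calr* were named after their values were seen.

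Plasma membrane pumps and exchangers were 6 higher and 1 lower of 7. *Atp2b2*, a pump that exports calcium from the cell, was at 2.06 (1.78 to 2.40), its relative *Atp2b4* at 1.21 (1.07 to 1.38) and the exchanger *Slc24a5* at 0.838 (0.722 to 0.972). On all UMIs *Slc24a5* was higher in Tg7, at 1.41. Among 18 genes of mitochondrial calcium uptake and ER contact, 8 were higher and 10 lower. *Mcub*, a subunit that dampens the mitochondrial uniporter, was at 2.97 (2.22 to 4.04), *Vdac1*, the outer membrane channel, was 1.96-fold lower (0.510, 0.469 to 0.555) but at 0.861 on all UMIs, and *Hspa9*, a mitochondrial chaperone that links it to IP3 receptors, 1.504-fold lower (0.665, 0.625 to 0.707), though at 1.12 on all UMIs.

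Endolysosomal channels and related genes were 2 higher and 4 lower of 6. *Tpcn1*, a pore opened by NAADP signalling, was 1.65-fold lower (0.606, 0.490 to 0.749) but at 1.02 on all UMIs, *Mcoln1* was at 0.773 (0.616 to 0.972), turning to 1.30 on all UMIs, and *Tmem165* at 1.054 (0.955 to 1.17). Cytosolic calcium sensors and buffers were 10 higher and 9 lower of 19. The buffer calbindin, *Calb1*, had 1140 Tg7 and 155 Wild-type UMIs, at a ratio of 4.82 (4.07 to 5.74). *Camk2a*, a calmodulin kinase, had 125 and 2 UMIs, a ratio of 40.9 whose interval runs from 11.1 to 341.8. *Camk1d*, another, was at 3.36 (2.46 to 4.67).

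The genes whose levels most resembled each member were sought over the 8 class-by-library sums, among 6846 genes with at least 500 UMIs over them. The 8 points share 2 libraries and are not independent, so the correlations are descriptions. *Atp2a2* was most like *G6pc2*, a glucose-6-phosphatase subunit of islets (Pearson's r 0.985), and *Syvn1*, an ER ubiquitin ligase (0.979). *Atp2a3* was most like *Slc44a1* (0.979) and *Ubald2* (0.970), *Itpr1* like *Resp18* (0.950) and *Nrip1* (0.939), *Itpr3* like *Gpr180* (0.974) and *Irgq* (0.955), and *Stim1* like *Mpp6* (0.985) and *Laptm4a* (0.985). *G6pc2* was at 1858 CPM in Wild-type insulin cells, 236.5 in Tg7 insulin cells and 3.62 to 39.4 in the other sums. *Resp18*, an abundant protein of secretory granules, was at 1992 CPM in Wild-type insulin cells, 2599 in Tg7 insulin cells and 5303 to 8766 elsewhere. Between members, *Atp2a2* and *Atp2a3* had r 0.957, *Atp2a2* and *Itpr1* r -0.929, and *Atp2a2* and *Stim1* r 0.293.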

How the data were processed

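Islets of 12-week-old mice were profiled with 10x Genomics chemistry, 1 library per group. For each library the authors deposited a matrix of UMI counts. According to the submitters' processing notes these came from bcl2fastq 2.17.1.14 and Cell Ranger 3.0.2 (STAR) on mm10; the gene annotation's version is not named by the labels or methods. The study's methods removed doublets later, so the matrices may hold them.

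The 8 members, the gene lists and the marker lists were chosen with earlier results of these data known. Barcodes were filtered (at least 1000 UMIs, at most 20% mitochondrial) and classed by their highest hormone with Python 3.11.15, numpy 2.4.6 and scipy 1.17.1. Counts were summed per class and library and divided by the UMIs of genes other than 7 hormone genes. With 1 library per group no model was fitted and no p-value was computed; the ratios carry conditional exact binomial intervals, levels exact Poisson intervals and shares Clopper-Pearson intervals, at 95%. The interval code was tested on simulated data. Genes needed 20 UMIs over both libraries to be compared, and a count of 0 was set at a limit of 3 UMIs. Thinning drew 2000 non-hormone UMIs per cell, in 1 random draw. Scrublet (scanpy 1.11.5) called 14 Tg7 and 6 Wild-type doublets, which were kept. TMM (edgeR 4.0.16) and median-of-ratios (DESeq2 1.42.0) factors, with R 4.3.3, served only as alternative scalings; the other alternatives changed the filters, the cells, their weight or the minimum count.

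Named genes were the 8 members, up to 3 genes per list with the largest log2 ratio and at least 100 UMIs, and the 2 genes most like each member with 500 UMIs, by Pearson correlation of log2(level + 10), leaving out mitochondrial, ribosomal and unnamed genes. Gene positions are from a RefSeq table of GRCm38.p6, which is mm10, and the microRNA from RefSeq. The 3′ UTRs were read from GENCODE vM1 transcripts, made on the older build NCBIM37, so no genome position is given for them. Of the list genes, *Septin2*, *Itprip* and *Strit1* had no single match and were not used, and 4 were matched by older symbols.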

Additional observations from a re-analysis of the deposited data

Results flagged for a closer look

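Ratios of Tg7 to Wild-type for 2 members pointed in opposite directions in insulin and in Gcg cells. *Atp2a2* was at 0.371 in insulin cells and 1.18 in Gcg cells, and *Itpr1* at 2.51 in insulin cells and 0.762 in Gcg cells. The difference between the classes was not tested, since each class has 1 library per group. In single-hormone cells the *Atp2a2* ratio in Gcg cells was 0.936, and the *Itpr1* ratios were 2.57 and 0.873.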

How the results depend on the processing

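No paired analysis was possible because there was 1 library per group and no test, and for the same reason no library could be left out. The choice that moved the insulin-cell ratios was the scaling. On all UMIs, where all genes had a median log2 ratio of 0.71 instead of -0.04, the ratios were 0.627 for *Atp2a2*, 0.732 for *Atp2a3*, 4.23 for *Itpr1*, 1.87 for *Itpr2*, 2.40 for *Itpr3*, 22.5 as the bound for *Ryr2*, 2.61 for *Stim1* and 1.49 for *Orai1*, with 5 members higher and 1 lower by 1.5-fold or more, where 65.8% of all 13583 genes were past 1.5-fold, and 110 calcium-handling genes higher and 12 lower at a median of 0.73. Over the 9 other alternatives, which used TMM or median-of-ratios factors, other filters, no called doublets, no barcodes of other cell types, single-hormone cells, equal weight per cell or, chosen after seeing the data, a highest hormone of at least 5% of UMIs, the ratios ran from 0.362 to 0.382 for *Atp2a2*, 0.415 to 0.446 for *Atp2a3*, 2.48 to 2.58 for *Itpr1*, 1.10 to 1.34 for *Itpr2*, 1.40 to 1.5 for *Itpr3*, 1.48 to 1.61 for *Stim1* and 0.781 to 1.13 for *Orai1*; the bound for *Ryr2* ran from 12.9 to 13.7 over 8 of them. In single-hormone cells the *Atp2a2* ratio in Gcg cells turned to 0.936, *Atp2a3* gave 27.5% of pump UMIs in Tg7 Gcg cells (26.8% with each cell weighted equally), and *Itpr1* gave 73.6% and 59.5% of receptor UMIs in Tg7 and Wild-type insulin cells and 94.7% in Tg7 Gcg cells. The causes were not tested. Of all genes in insulin cells 25% were past 1.5-fold with a minimum of 100 UMIs and 38.5% with none. Repeats of the tertiles without other cell types and in single-hormone cells were chosen after seeing the data. Counts limit *Orai1*, *Itpr2* and *Ryr2* outside insulin cells, and every gene in Sst and Ppy cells.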
